A study of Mus musculus with 21 samples.

Results

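The 10 genes described here are Nfe2l2, which encodes the transcription factor NRF2, and 9 genes listed as its targets in antioxidant defence: Nqo1, Hmox1, Gclc, Gclm, Txnrd1, Srxn1, Slc7a11, Gpx2 and Gsta4. They were taken from a list by symbol, with no rule on their measured values, and are 10 of the 55536 gene IDs counted. The list was, however, chosen with earlier results of these data known. Its counts and medians are therefore given beside those of all genes as a description only. Each symbol matched 1 gene ID of the GENCODE vM21 annotation, and all 10 passed the filter on low counts in every fit. They were measured by RNA sequencing in primary mouse mammary organoids, which are clusters of mammary epithelial cells grown in culture.

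NRF2 is a basic leucine zipper factor that is made continuously and, in unstressed cells, held by KEAP1 in the cytoplasm and passed to the proteasome. Oxidants and electrophiles modify KEAP1, NRF2 then escapes degradation, pairs with a small MAF protein in the nucleus and binds antioxidant response elements beside its target genes. Its control is therefore mostly at the level of the protein, which RNA sequencing does not measure, and the target transcripts are the usual readout. The targets make glutathione and thioredoxin available in reduced form, remove quinones and peroxides, break down haem and couple reactive lipids to glutathione. In mammary epithelium the factor is known both for limiting oxidative damage and for supporting the growth of tumours in which it is switched on.

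Organoids were wild type (WT) or homozygous for the ATLD1 allele of Mre11 (ATLD), a hypomorphic allele of the nuclease that acts at DNA double-strand breaks. Libraries were made at day 0, day 14 and day 28 after activation of neuT, the activated rat form of the Erbb2 oncogene, so WT and ATLD organoids carried neuT alike. Each of the 6 groups of genotype and day had 3 original libraries, and for WT the first replicate of each day had a second sequencing run, in the batch that held all ATLD libraries. Every library of day 14 and day 28 came after neuT activation, so the effect of neuT and that of time in culture cannot be told apart. The labels name neither the promoter of neuT nor the way it was switched on, and do not tie the replicates to mice. The p-values therefore measure the spread between these samples, which may be technical.

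Promoter sequence was available for 7 of the 10 genes, as windows from 250 bases before to 50 bases after the start site (RefSeq, GRCm38.p6, the assembly that mm10 names). The genes Hmox1, Gclc and Gsta4 had no window. The core of the antioxidant response element was searched on both strands as TGACNNNGC, the AP-1 site as TGANTCA and the C/EBP-ATF element, which ATF4 can bind, as TGATGNAA. The following stretches carry the matches upstream of a start site, with the matched letters in capitals and 10 bases on each side, to show which kind of element stands before which gene.
Nfe2l2, antioxidant response core, chr2:75704885-75704913, minus strand: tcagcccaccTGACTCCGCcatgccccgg
Gclm, antioxidant response core on the opposite strand, chr3:122245413-122245441, plus strand: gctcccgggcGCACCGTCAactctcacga
Txnrd1, antioxidant response core on the opposite strand, chr10:82859104-82859132, plus strand: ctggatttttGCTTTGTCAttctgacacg
Srxn1, AP-1 site, chr2:152105412-152105438, plus strand: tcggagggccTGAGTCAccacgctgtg
Srxn1, AP-1 site nearer the start, chr2:152105469-152105495, plus strand: aaattcacccTGAGTCAgcggccgggc
Slc7a11, C/EBP-ATF element, chr3:50443662-50443689, minus strand: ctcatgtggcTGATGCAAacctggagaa
Slc7a11, C/EBP-ATF element on the opposite strand, chr3:50443643-50443670, minus strand: cctggagaatTTGCATCAtcatgcagcc

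The antioxidant response core of Nfe2l2 began 240 bases before the start site, that of Gclm 134 bases before and that of Txnrd1 92 bases before the second of its 3 annotated starts. A further core match in Srxn1 lay past the start, at bases 28 to 36. The AP-1 sites of Srxn1 began 102 and 45 bases before its start, and the C/EBP-ATF elements of Slc7a11 began 66 and 47 bases before. No match to the 3 motifs was found in the windows of Nqo1 and Gpx2. Of all 32817 promoter windows, 12.38% held the antioxidant response core, 7.81% the AP-1 site and 3.97% the C/EBP-ATF element. The AP-1 letters can lie inside an antioxidant response element, but none of the matches above to the letters searched overlapped. The nearer AP-1 site of Srxn1 is followed by gc, so it differs from the searched core only by G in place of C. A core that allows G there was not searched. A match is a description of these letters and was not tested for binding.

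The libraries held 30905703 to 51757203 counts. Mre11a, the mouse gene of Mre11, stood at 42.2 to 58.6 CPM (counts scaled to a library of 1e+06 with TMM factors) in the 12 WT libraries and at 14.1 to 17.0 CPM in the 9 ATLD libraries, so the genotype labels matched. WT day 14 replicates 1 and 3 and WT day 28 replicate 2 stood apart by a trend with GC content, at -0.62, -0.61 and -0.47 log2 per 10% GC, where the other 18 libraries lay between -0.29 and 0.37. The epithelial markers Epcam, Cdh1, Krt8 and Krt18 summed to 1710 to 5170 CPM, and all 4 were detected in every group. The 6 luminal progenitor markers summed to 11000 to 11700 CPM in WT at day 0 and to 285 to 407 CPM in WT at day 14 and day 28, all 6 called lower at both days. In ATLD their sum was 16900 to 20200 CPM at day 0, 14400 to 18200 CPM at day 14 and 35400 to 39200 CPM at day 28. The 6 did not move together there. Against day 0, 2 rose and 1 fell at day 14 (Ltf, -1.33), and 4 rose and 1 fell at day 28 (Kit, -0.87). The 6 basal markers summed to 2080 to 2670 CPM in WT at day 0 and to 3930 to 9540 CPM later, while in ATLD they went from 3560 to 3920 CPM to 1980 to 2440 CPM. The later WT range split by the GC trend, with 4082, 3933 and 4538 CPM in the libraries that carry it. The other later original WT libraries held 8476 to 9539 CPM. For WT day 14 replicate 1 the resequenced run held 9617 CPM and the original run 4082 CPM. The basal genes did not move together: in WT, Krt5, Krt14 and Trp63 rose at day 14 and Acta2, Myh11 and Oxtr fell (-4.73, -3.59 and -1.22), and in ATLD 1 rose (Oxtr, 0.56) and 3 fell. The 5 hormone-sensing luminal markers summed to 416 to 426 CPM in WT at day 0, 216 to 282 CPM at the later days and 94.1 to 145 CPM in ATLD. At day 0, 4 of these 5 were lower in ATLD, among them Foxa1 (-5.00) and Esr1 (-2.26). Outside the mammary epithelium, marker sums were at most 49.8 CPM (fibroblast), 11.9 CPM (macrophage and myeloid) and 18.8 CPM (lung epithelium). Within these lists Sftpc and Lyz2 went with the batch. In the original WT libraries they held 4.22 to 10.6 and 4.26 to 9.06 CPM. In the resequenced WT runs they were at most 0.516 and 0.0401 CPM, and in ATLD at most 0.149 and 0.0676 CPM. The source of these reads was not tested. In ATLD the lung sum was mostly Sftpd, at 6.28 to 17 CPM. Adipocyte markers summed to at most 0.11 CPM. In bulk RNA, fewer cells of a type and less RNA per cell cannot be told apart, and the part of these marker shifts in the results on the 10 genes was not tested.

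**Figure D1:**
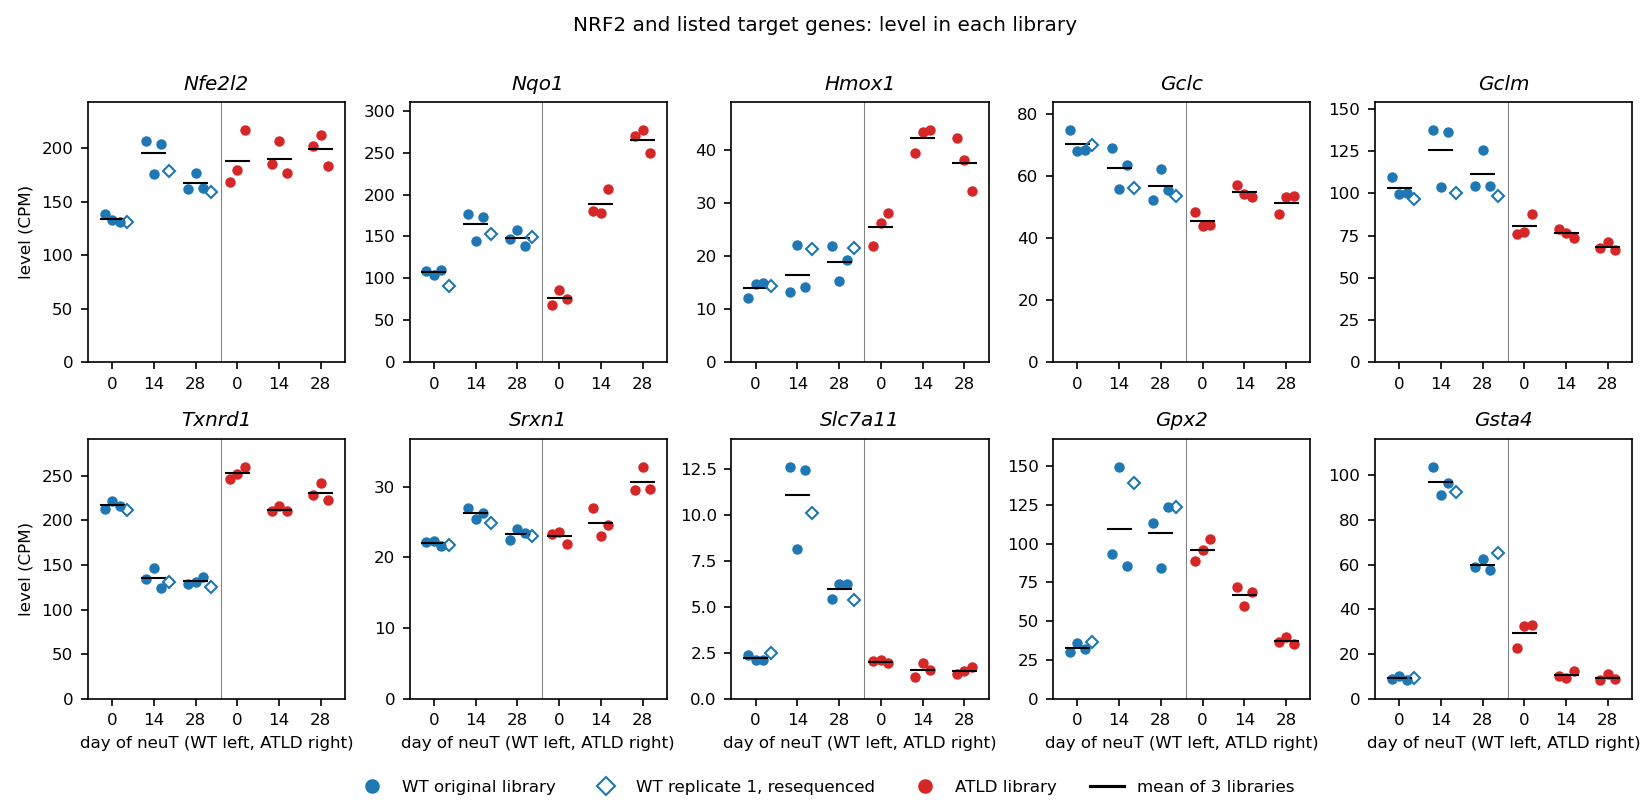
Level in CPM (vertical axes from 0, 1 panel a gene) against day of neuT activation, WT on the left of each panel and ATLD on the right. Filled points are the original libraries, open diamonds the resequenced runs of WT replicate 1, and bars the mean of 3 original libraries. Gsta4, Gpx2 and Slc7a11 climb from day 0 in WT and not in ATLD, and Nqo1 climbs furthest in ATLD, to 249 to 277 CPM at day 28.

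In WT organoids the 10 genes did not move as 1 block after neuT activation. At day 14, 6 were higher than at day 0 (Nfe2l2, Nqo1, Srxn1, Slc7a11, Gpx2 and Gsta4), 1 was lower (Txnrd1), and Hmox1, Gclc and Gclm were not called, a call being an adjusted p under 0.05 in edgeR. Of all 18684 genes tested, 15.2% were called higher and 15.1% lower in that comparison, and the median log2 difference was 0.41 over the 10 genes and 0.013 over all. At day 28, 5 of the 10 were higher than at day 0 (Nfe2l2, Nqo1, Slc7a11, Gpx2 and Gsta4) and 2 lower (Txnrd1 and Gclc), where 12.3% of all genes were higher and 12.4% lower. The medians were 0.38 over the 10 and 0.023 over all genes. Between day 14 and day 28 only Slc7a11 and Gsta4 were called, both lower at day 28, with 0.905% of all genes called in either direction.

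In ATLD organoids the same days gave another pattern. At day 14, Nqo1 and Hmox1 were higher and Gsta4 and Txnrd1 lower than at day 0, where 5.18% of all genes were higher and 6.49% lower. At day 28, Nqo1, Hmox1 and Srxn1 were higher and Gpx2 and Gsta4 lower, where 14.1% of all genes were higher and 15.7% lower. The median log2 difference over the 10 genes was -0.033 at day 14 and -0.024 at day 28, beside -0.030 and -0.021 over all genes. From day 14 to day 28, Nqo1 and Srxn1 rose and Gpx2 fell, where 17.3% of all genes were called in either direction. Nqo1 was thus called higher than at day 0 at both days in both genotypes, and Gsta4 was called in opposite directions.

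Nfe2l2 (ENSMUSG00000015839, chromosome 2, 75675513 to 75704641, minus strand), the gene of NRF2 itself, was higher in WT at both later days than at day 0, and at day 0 it was higher in ATLD than in WT. Its level in WT was 139, 133 and 132 CPM at day 0, 207, 176 and 204 CPM at day 14 and 162, 177 and 163 CPM at day 28. Every later WT library stood above every WT library of day 0. The log2 difference was 0.54 ± 0.11 (adjusted p = 0.000787) at day 14 and 0.32 ± 0.11 (adjusted p = 0.0372) at day 28. In ATLD it was 169, 179.8 and 217 CPM at day 0, 186, 206 and 177 CPM at day 14 and 202, 213 and 184 CPM at day 28. The days overlapped, with log2 differences of 0.0082 ± 0.11 (adjusted p = 0.983) and 0.082 ± 0.11 (adjusted p = 0.602). All 3 ATLD libraries of day 0 were above all WT libraries of day 0, by 0.56 ± 0.11 (adjusted p = 0.00038). At day 14 the genotypes overlapped (0.049 ± 0.11, adjusted p = 0.711), and at day 28 ATLD was higher by 0.33 ± 0.11 (adjusted p = 0.0142). Within the second batch alone, where each WT day has 1 library, the 3 values were 0.58, 0.15 and 0.37 (adjusted p = 0.0278, 0.498 and 0.115). The WT rise at day 28 was lost in 10 of 14 alternative fits, among them those without any single library of the compared days (0.276 to 0.346, adjusted p = 0.0602 to 0.109). The genotype difference at day 28 was lost without both runs of WT day 28 replicate 1 (0.315, adjusted p = 0.112) or without ATLD day 28 replicate 2 (0.286, adjusted p = 0.0527). Without the 3 WT libraries with the GC trend, the WT rise at day 14 was 0.352 (adjusted p = 0.0182).

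Glutathione synthesis starts with glutamate-cysteine ligase, whose catalytic subunit is encoded by Gclc and whose modifier subunit is encoded by Gclm, and depends on cystine brought in by Slc7a11, the transport subunit of system xc-. These 3 genes behaved unlike one another, and in WT only the transporter rose. Gclc (ENSMUSG00000032350, chromosome 9, 77754535 to 77794485, plus strand) measured 74.8, 68.2 and 68.5 CPM in WT at day 0, 69.1, 55.7 and 63.4 CPM at day 14 and 52.3, 62.2 and 55.5 CPM at day 28. In ATLD it measured 48.4, 43.9 and 44.1 CPM at day 0, 57.1, 54.3 and 53.2 CPM at day 14 and 47.6, 53.3 and 53.5 CPM at day 28. The WT libraries of day 28 were all below those of day 0 (-0.31 ± 0.099, adjusted p = 0.0262), while day 14 overlapped day 0 (-0.17 ± 0.099, adjusted p = 0.226). Without the libraries with the GC trend the fall at day 14 was called (-0.379, adjusted p = 0.00247), as it was with an offset for GC content (-0.198, adjusted p = 0.0329). In ATLD the values were 0.27 ± 0.099 (adjusted p = 0.0958) at day 14 and 0.18 ± 0.099 (adjusted p = 0.19) at day 28, and the GC offset called both (0.299, adjusted p = 0.00521, and 0.239, adjusted p = 0.0117). At day 0 Gclc was 1.48-fold lower in ATLD than in WT (-0.57 ± 0.10, adjusted p = 0.000161), with every ATLD library below every WT library. At the later days the genotypes overlapped, at -0.092 and -0.057 (adjusted p = 0.451 and 0.649). Within the second batch the 3 values were -0.58, 0.032 and -0.020, and only that of day 0 was called (adjusted p = 0.00505). The fall in WT at day 28 was lost without any of WT day 0 replicates 1, 2 and 3 or WT day 28 replicates 1 and 3 (-0.341 to -0.255, adjusted p = 0.0524 to 0.148), and in 7 of 14 alternative fits in all.

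Gclm (ENSMUSG00000028124, chromosome 3, 122245557 to 122270732, plus strand) was not called in any comparison of days and was lower in ATLD at the later days. Its level was 109.8, 99.5 and 100.2 CPM in WT at day 0, 138, 104 and 136 CPM at day 14 and 104, 125 and 105 CPM at day 28. In ATLD it was 76.1, 77.3 and 87.96 CPM, then 79.1, 76.6 and 73.7 CPM and 67.7, 70.98 and 66.5 CPM. Every ATLD library of every day lay below every WT library, 66.5 to 88.0 CPM against 96.5 to 138 CPM with the resequenced runs counted. The genotype difference was -0.19 ± 0.12 (adjusted p = 0.191) at day 0, -0.49 ± 0.12 (adjusted p = 0.00166) at day 14 and -0.51 ± 0.12 (adjusted p = 0.0011) at day 28. In the second batch alone it was -0.21, -0.33 and -0.49 (adjusted p = 0.245, 0.0732 and 0.0132). Replicates 1 and 3 of WT day 14, which carry the GC trend, were the 2 highest libraries, and without WT day 14 replicate 2 the WT difference of 0.29 at day 14 became 0.411 (adjusted p = 0.00378). Without the 3 libraries with the trend it was -0.063, the genotype difference at day 14 was -0.308 (adjusted p = 0.00609), and that at day 0 was called at -0.269 (adjusted p = 0.0125). The gene shares 296 of its 6291 exon bases with Gm17494 on the opposite strand, whose counts summed to 1141 over all libraries beside 90609 for Gclm. The strand setting of the counting is not given in the sources used here.

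Slc7a11 (ENSMUSG00000027737, chromosome 3, 49892526 to 50443614, minus strand) rose in WT after neuT activation and stayed low in ATLD. In WT it stood at 2.40, 2.12 and 2.10 CPM at day 0, 12.7, 8.18 and 12.5 CPM at day 14 and 5.43, 6.27 and 6.23 CPM at day 28. The 3 days did not overlap, and day 14 was the highest. Against day 0 the gene was 5.03-fold higher at day 14 (2.33 ± 0.19, adjusted p = 3.9e-08) and 2.71-fold higher at day 28 (1.44 ± 0.19, adjusted p = 1.55e-05). In ATLD it stood at 2.04, 2.10 and 1.92 CPM at day 0, 1.15, 1.94 and 1.54 CPM at day 14 and 1.32, 1.53 and 1.74 CPM at day 28. Neither later day was called, at -0.39 ± 0.20 and -0.40 ± 0.20 (adjusted p = 0.274 and 0.148). The genotypes overlapped at day 0 (-0.14 ± 0.20, adjusted p = 0.575), whereas ATLD was 6.87-fold lower at day 14 (-2.78 ± 0.20, adjusted p = 1.02e-09) and 3.71-fold lower at day 28 (-1.89 ± 0.20, adjusted p = 2.19e-07). The second batch alone gave -0.25, -2.65 and -1.78, with the later days called (adjusted p = 1.82e-06 and 8.18e-05). The rise at each day in WT and the genotype difference at each later day were called in each of their 14 alternative fits. The fall from day 14 to day 28 in WT (-0.89 ± 0.18, adjusted p = 0.0205) was lost without WT day 14 replicate 1 or 3 or WT day 28 replicate 1 or 3 (-0.932 to -0.788, adjusted p = 0.0875 to 0.146). It was also lost without the libraries with the GC trend (-0.635, adjusted p = 0.198), and in 8 of 14 alternative fits in all. The C/EBP-ATF elements printed above stand before this gene, which had the lowest CPM of the 10 in every group.

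Thioredoxin is kept reduced by the selenoprotein thioredoxin reductase 1, the product of Txnrd1, and sulfiredoxin, the product of Srxn1, repairs overoxidised peroxiredoxins. Txnrd1 (ENSMUSG00000020250, chromosome 10, 82833951 to 82897712, plus strand) went the other way from most of the listed targets in WT. It measured 213, 222 and 216 CPM in WT at day 0, 134, 147 and 124 CPM at day 14 and 128, 131 and 136 CPM at day 28. All 6 later libraries were below all 3 of day 0, 1.61-fold lower at day 14 (-0.69 ± 0.080, adjusted p = 3.27e-06) and 1.64-fold lower at day 28 (-0.72 ± 0.080, adjusted p = 2.37e-06), and both calls held in each of 14 alternative fits. The ATLD levels were 247, 252 and 261 CPM at day 0, 210.3, 216 and 210.2 CPM at day 14 and 229, 242 and 222 CPM at day 28. Against day 0 it fell at day 14 (-0.25 ± 0.080, adjusted p = 0.0483), and the difference at day 28 was not called (-0.13 ± 0.080, adjusted p = 0.238). The fall at day 14 in ATLD was lost in 10 of 12 alternative fits, among them those without any single library of the compared days (-0.275 to -0.233, adjusted p = 0.0679 to 0.131). ATLD was above WT at every day without overlap, by 0.27 ± 0.082 (adjusted p = 0.00945) at day 0, 0.70 ± 0.083 (adjusted p = 6.71e-07) at day 14 and 0.87 ± 0.083 (adjusted p = 4.69e-08) at day 28. Within the second batch these were 0.31, 0.77 and 0.92 (adjusted p = 0.0972, 0.000921 and 0.000269). Without both runs of WT day 0 replicate 1 the difference at day 0 was 0.270 and not called (adjusted p = 0.0932).

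Srxn1 (ENSMUSG00000032802, chromosome 2, 152105516 to 152111376, plus strand) had the narrowest range of the 10 over the original libraries, 21.6 to 32.8 CPM. WT libraries held 22.2, 22.3 and 21.6 CPM at day 0, 27.03, 25.4 and 26.2 CPM at day 14 and 22.5, 23.9 and 23.4 CPM at day 28. The WT difference at day 14 was 0.25 ± 0.088 (adjusted p = 0.0385) and that at day 28 0.080 ± 0.088 (adjusted p = 0.604). ATLD libraries held 23.3, 23.6 and 21.9 CPM at day 0, 26.99, 23.01 and 24.5 CPM at day 14 and 29.5, 32.8 and 29.7 CPM at day 28. The ATLD libraries of day 28 stood above all other ATLD libraries, by 0.42 ± 0.088 (adjusted p = 0.00163) over day 0 and 0.30 ± 0.088 (adjusted p = 0.0235) over day 14. The genotypes differed at day 28 (0.43 ± 0.090, adjusted p = 0.000428, second batch alone 0.45, adjusted p = 0.0211) and not detectably at day 0 (0.094 ± 0.090, adjusted p = 0.387) or day 14 (-0.028 ± 0.090, adjusted p = 0.797). The WT call at day 14 was lost without WT day 0 replicate 1, 2 or 3 or WT day 14 replicate 1 or 3 (0.229 to 0.279, adjusted p = 0.0637 to 0.125), and in 10 of 14 alternative fits in all. The ATLD call from day 14 to day 28 was lost without ATLD day 14 replicate 2 or 3 or ATLD day 28 replicate 2 (0.25 to 0.293, adjusted p = 0.0743 to 0.114) and in 7 of 12 alternative fits in all, and the genotype call at day 28 with an offset for GC content (0.302, adjusted p = 0.0545).

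Nqo1, the quinone reductase that uses NAD(P)H, and Hmox1, the inducible haem oxygenase, were the pair that rose in ATLD at both later days. Nqo1 (ENSMUSG00000003849, chromosome 8, 107388225 to 107403206, minus strand) measured 109, 104 and 110.1 CPM in WT at day 0, 176, 145 and 174 CPM at day 14 and 147, 157 and 138 CPM at day 28. In ATLD it measured 68.1, 86.7 and 75.3 CPM at day 0, 181, 178 and 206 CPM at day 14 and 269.5, 277 and 249 CPM at day 28. No ATLD day overlapped another, and the level was higher at each later one. The rise was 0.62 ± 0.11 (adjusted p = 0.000244) and 0.46 ± 0.11 (adjusted p = 0.00381) in WT at day 14 and day 28. It was 2.46-fold (1.30 ± 0.11, adjusted p = 5.87e-07) and 3.46-fold (1.79 ± 0.11, adjusted p = 8.98e-09) in ATLD, and 0.49 ± 0.11 (adjusted p = 0.00395) between day 14 and day 28. All 5 calls held in every alternative fit. The order of the genotypes turned over time, with ATLD below WT at day 0 (-0.34 ± 0.12, adjusted p = 0.0185) and above it at day 14 (0.30 ± 0.12, adjusted p = 0.029) and day 28 (0.92 ± 0.12, adjusted p = 1.77e-06). Within the second batch the 3 values were -0.19, 0.37 and 0.86, and only that of day 28 was called (adjusted p = 0.356, 0.0808 and 0.00144). The difference at day 0 was lost without ATLD day 0 replicate 1 (-0.266, adjusted p = 0.0686). That at day 14 was lost without both runs of WT day 14 replicate 1 (0.356, adjusted p = 0.0783) or without ATLD day 14 replicate 3 (0.238, adjusted p = 0.106).

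Hmox1 (ENSMUSG00000005413, chromosome 8, 75093621 to 75100589, plus strand) was higher in ATLD at every day. In WT the levels were 12.03, 14.7 and 14.99 CPM at day 0, 13.2, 21.99 and 14.2 CPM at day 14 and 21.9, 15.3 and 19.2 CPM at day 28, with log2 differences of 0.24 ± 0.18 (adjusted p = 0.351) and 0.44 ± 0.18 (adjusted p = 0.0987). In ATLD the levels were 21.8, 26.2 and 28.2 CPM at day 0, 39.5, 43.4 and 43.7 CPM at day 14 and 42.3, 38.2 and 32.2 CPM at day 28. Both later days lay above day 0 without overlap in ATLD, by 0.73 ± 0.18 (adjusted p = 0.0113) and 0.57 ± 0.18 (adjusted p = 0.025). ATLD exceeded WT by 0.69 ± 0.20 (adjusted p = 0.00623) at day 0, 1.10 ± 0.20 (adjusted p = 7.79e-05) at day 14 and 0.79 ± 0.20 (adjusted p = 0.00178) at day 28. The second batch alone gave 0.86, 1.05 and 0.84, all called (adjusted p = 0.00516, 0.000956 and 0.00387). Without both runs of WT day 0 replicate 1 the difference at day 0 was 0.484 (adjusted p = 0.168). In WT, replicates 1 and 3 of day 14 were low beside replicate 2, and without the libraries with the GC trend the WT rise was called on both later days, at 0.596 for day 14 (adjusted p = 0.00207) and 0.534 for day 28 (adjusted p = 0.0057). An offset for GC content gave 0.368 (adjusted p = 0.019) and 0.446 (adjusted p = 0.00644). Without WT day 28 replicate 2 alone the rise at day 28 was 0.564 (adjusted p = 0.0434), and without WT day 14 replicate 2 the step from day 14 to day 28 was called at 0.457 (adjusted p = 0.0488). The ATLD rise at day 14 was lost without ATLD day 0 replicate 1 (0.633, adjusted p = 0.0679). That at day 28 was lost without ATLD day 0 replicate 1 or 2 or ATLD day 28 replicate 1 or 2 (0.465 to 0.586, adjusted p = 0.0565 to 0.111).

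Gpx2, a selenium-dependent glutathione peroxidase of epithelia, and Gsta4, a glutathione transferase that acts on the lipid aldehyde 4-hydroxynonenal, changed their order between the genotypes over time. Gpx2 (ENSMUSG00000042808, chromosome 12, 76792333 to 76795554, minus strand) stood at 30.3, 35.7 and 32.1 CPM in WT at day 0, 93.5, 149.7 and 85.4 CPM at day 14 and 113, 84.5 and 123 CPM at day 28. In ATLD it stood at 88.5, 96.04 and 103 CPM at day 0, 71.7, 59.97 and 68.6 CPM at day 14 and 36.2, 39.5 and 35.5 CPM at day 28. The ATLD libraries of day 0 were thus in the range of WT at day 14 and day 28, and the ATLD libraries of day 28 were near those of WT at day 0. In WT Gpx2 was 3.35-fold higher at day 14 (1.74 ± 0.18, adjusted p = 7.63e-07) and 3.27-fold higher at day 28 (1.71 ± 0.18, adjusted p = 1.22e-06). In ATLD it was -0.52 ± 0.18 at day 14, which was not called (adjusted p = 0.0684) although all 3 libraries were below those of day 0, and 2.58-fold lower at day 28 (-1.37 ± 0.18, adjusted p = 1.87e-05). ATLD was 2.51-fold higher than WT at day 0 (1.33 ± 0.19, adjusted p = 1.54e-05), 1.98-fold lower at day 14 (-0.98 ± 0.18, adjusted p = 0.000143) and 3.39-fold lower at day 28 (-1.76 ± 0.19, adjusted p = 1.79e-07). The ATLD difference at day 14 was called by DESeq2 (-0.507, adjusted p = 0.0418), without the low-count filter (-0.523, adjusted p = 0.0458) and with the compared groups alone (-0.519, adjusted p = 0.0139). The second batch alone gave 1.43, -0.99 and -1.70, all called (adjusted p = 8.54e-05, 0.000158 and 1.39e-06). The gene lies inside Fntb on the opposite strand and shares no exon base with it. Fntb stood at 83.3 ± 6.22 CPM in ATLD and 49.6 ± 4.02 CPM in WT at day 0, and at 103 ± 11.5 and 41.7 ± 7.96 CPM at day 28 (SD, n = 3), where Gpx2 was lower in ATLD.

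Gsta4 (ENSMUSG00000032348, chromosome 9, 78182774 to 78209349, plus strand) had the largest rise of the 10 in WT and the largest genotype difference at day 14 and day 28. In WT it went from 8.86, 10.3 and 8.32 CPM at day 0 to 104, 91.1 and 96.5 CPM at day 14 and 58.9, 62.6 and 57.6 CPM at day 28. In ATLD it went from 22.9, 32.7 and 33.2 CPM at day 0 to 10.3, 9.44 and 12.3 CPM at day 14 and 8.44, 10.8 and 8.77 CPM at day 28. No WT day overlapped another, and both later ATLD days lay below ATLD day 0 while overlapping each other. The WT level was 10.6-fold higher at day 14 (3.41 ± 0.16, adjusted p = 3.21e-11) and 6.52-fold higher at day 28 (2.71 ± 0.15, adjusted p = 5.59e-10). The ATLD level was 2.77-fold lower at day 14 (-1.47 ± 0.15, adjusted p = 4.18e-06) and 3.16-fold lower at day 28 (-1.66 ± 0.15, adjusted p = 3.17e-07). At day 0 ATLD was 3.19-fold higher than WT (1.67 ± 0.16, adjusted p = 1.4e-07), and it was 9.12-fold lower at day 14 (-3.19 ± 0.16, adjusted p = 4.42e-12) and 6.61-fold lower at day 28 (-2.72 ± 0.16, adjusted p = 3.46e-11). Within the second batch these were 1.73, -3.05 and -2.76 (adjusted p = 0.000356, 1.46e-07 and 4.01e-07). The comparisons with day 0 and those between genotypes were called in every alternative fit for Gsta4, and so were those of Gpx2 other than ATLD at day 14. The fall of Gsta4 from day 14 to day 28 in WT (-0.70 ± 0.14, adjusted p = 0.0239) was lost without WT day 14 replicate 1 or 3 or WT day 28 replicate 1 or 3 (-0.709 to -0.652, adjusted p = 0.0909 to 0.146) or without the libraries with the GC trend (-0.644, adjusted p = 0.125), and in 8 of 14 alternative fits in all.

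**Figure D2:**
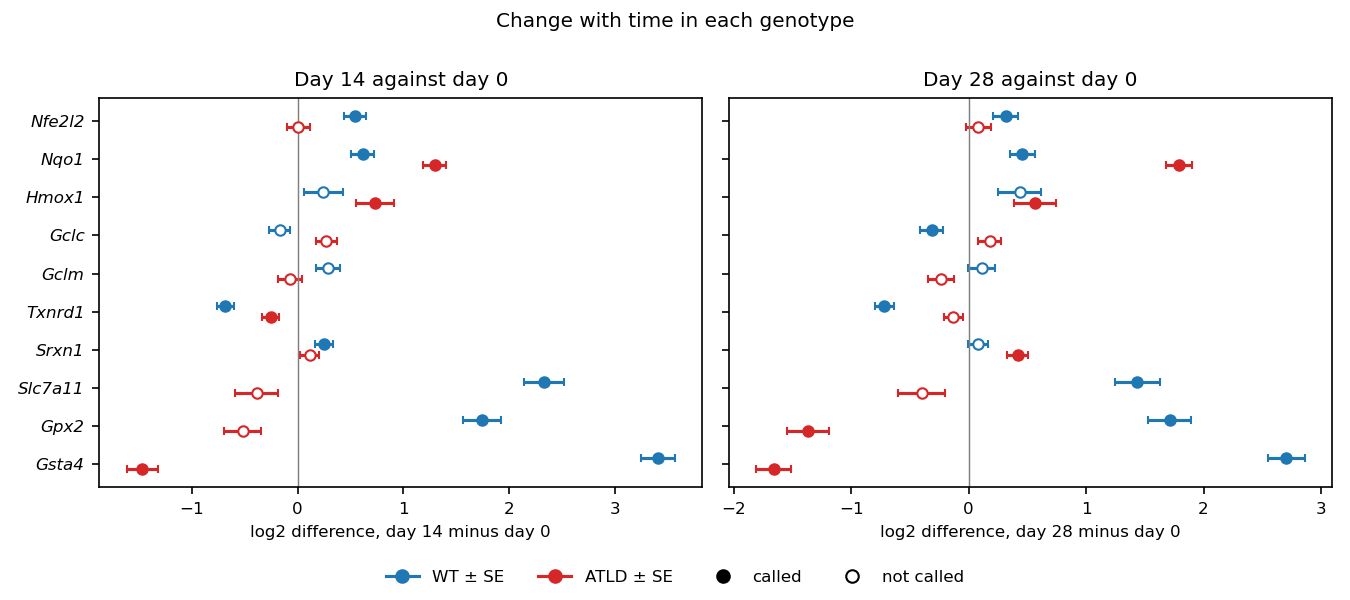
Log2 difference from day 0 (horizontal axes) for each gene at day 14 (left) and day 28 (right), as the fitted value with its SE. WT is blue and ATLD red, filled points are called at an adjusted p under 0.05 and open points are not. Gsta4 is at 3.41 in WT and -1.47 in ATLD at day 14, and Nqo1 lies further right in ATLD than in WT at both days.

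Read by genotype, at day 0, 5 of the 10 genes were higher in ATLD (Nfe2l2, Hmox1, Txnrd1, Gpx2 and Gsta4) and 2 lower (Nqo1 and Gclc), where 26.1% of all 18844 genes were higher and 29.5% lower. At day 14 there were 3 higher (Nqo1, Hmox1 and Txnrd1) and 4 lower (Gclm, Slc7a11, Gpx2 and Gsta4), with 30.1% and 35% of all genes. At day 28 there were 5 higher (Nfe2l2, Nqo1, Hmox1, Txnrd1 and Srxn1) and 4 lower (Gclm, Slc7a11, Gpx2 and Gsta4), with 29.3% and 34.9% of all genes. The median over the 10 was 0.18, -0.060 and 0.14 at the 3 days, beside -0.039, -0.066 and -0.053 over all genes. Hmox1 and Txnrd1 were higher in ATLD at every day, and none of the 10 was lower at every day by the test. With so many genes called in all, a call by itself sets no gene of the 10 apart, and the sizes above are the description. Genotype and batch are linked only through the 3 WT cultures sequenced in both batches, and the batch term was called for 0 of the 10 genes in edgeR (1 at an unadjusted p under 0.05, Gclm, at 0.0384). Both runs of those cultures entered the fit as if independent, which the p-values of genotype and batch do not allow for.

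**Figure D3:**
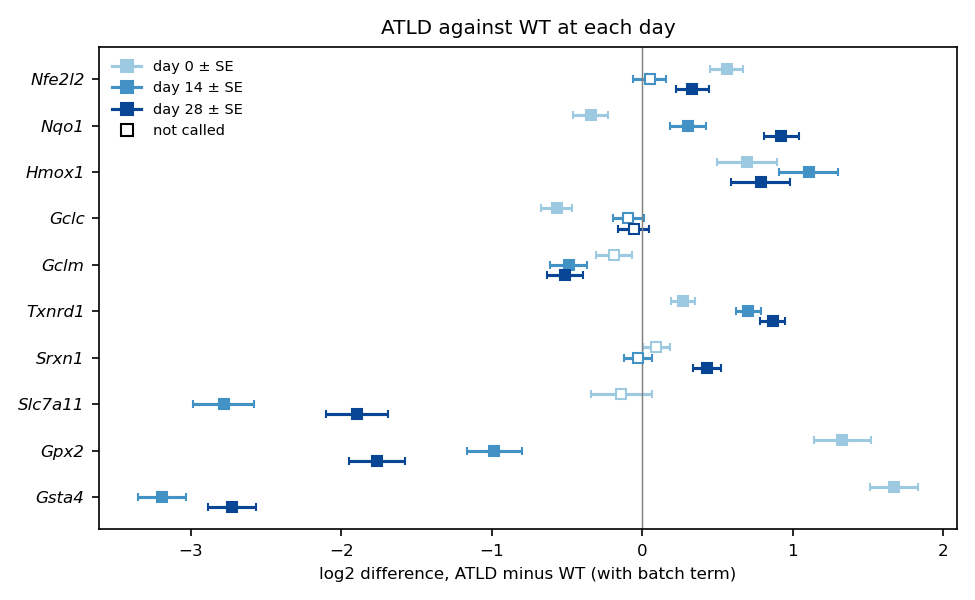
Log2 difference of ATLD minus WT (horizontal axis) for each gene at day 0, day 14 and day 28, from the fit with a batch term, with its SE. Filled squares are called and open squares are not. Gpx2 and Gsta4 lie right of 0 at day 0 (1.33 and 1.67) and left of 0 at day 14 and day 28, and Nqo1 goes from -0.34 to 0.92.

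Whether the change with time differed between the genotypes was tested directly, as the time effect in ATLD minus that in WT. At day 14, 7 of the 10 genes differed (21.3% of all genes), and at day 28, 6 differed (27.5%). The 3 genes with the largest WT rise had the most negative values, and by definition the WT change enters these values with a minus sign. Gsta4 was at -4.88 ± 0.22 (adjusted p = 4.36e-11) for day 14 and -4.36 ± 0.22 (adjusted p = 1.32e-10) for day 28. Slc7a11 was at -2.72 ± 0.27 (adjusted p = 8.28e-07) and -1.84 ± 0.28 (adjusted p = 6.19e-05), and Gpx2 at -2.26 ± 0.25 (adjusted p = 2.67e-06) and -3.08 ± 0.25 (adjusted p = 7.5e-08). All 6 of these values were called in each of their 19 alternative fits. Nqo1 rose more in ATLD, by 0.68 ± 0.15 (adjusted p = 0.003) and 1.33 ± 0.15 (adjusted p = 3.05e-06), and Txnrd1 had positive values as well, at 0.43 ± 0.11 (adjusted p = 0.00989) and 0.59 ± 0.11 (adjusted p = 0.000714). Gclc had 0.44 ± 0.14 (adjusted p = 0.0326) and 0.49 ± 0.14 (adjusted p = 0.0135), made up of negative values in WT and positive ones in ATLD. Nfe2l2 differed at day 14 (-0.53 ± 0.15, adjusted p = 0.0161) and not by the test at day 28 (-0.24 ± 0.15, adjusted p = 0.28). For Hmox1, Gclm and Srxn1 neither day was called, with values from -0.36 to 0.49.

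Some of these calls depended on which libraries were in the fit, also where the value itself changed little. For Gclc at day 14 the call was lost without any of WT day 0 replicates 1 to 3, WT day 14 replicates 2 and 3, ATLD day 0 replicates 2 and 3, or ATLD day 14 replicates 1 and 2 (0.353 to 0.446, adjusted p = 0.0552 to 0.125), and in 11 of 19 alternative fits in all. Its value at day 28 was 0.435 without WT day 0 replicate 1 and 0.425 without WT day 28 replicate 1 (adjusted p = 0.0527 and 0.0547). Without WT day 14 replicate 2 the day 14 difference was called for Hmox1 (0.747, adjusted p = 0.0122) and Gclm (-0.490, adjusted p = 0.0128). Without the 3 WT libraries with the GC trend Nfe2l2 at day 14 was -0.321 (adjusted p = 0.118) and Gclc 0.675 (adjusted p = 0.000274). The day 14 calls of Nfe2l2 and Txnrd1 were also lost without the low-count filter (-0.523 and 0.442, adjusted p = 0.0593 and 0.105). With the replicate block both were lost too (-0.533 and 0.433, adjusted p = 0.0647 and 0.0566).

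The relation of the genes to one another was read per kilobase of gene length, since counts per gene grow with length. The length is that of all annotated exon bases of a gene, not of its main transcript. For Gpx2 it is 3222 bases, the whole span of the gene, so its values per kilobase may be too low. The ranks below, above all the place of Gpx2, hold for these lengths only. In WT at day 0 the level was 69.3 ± 2.33 CPM per kilobase for Nqo1, 35.4 ± 0.978 for Nfe2l2, 30.6 ± 0.584 for Txnrd1, 18.7 ± 1.001 for Gclc, 16.4 ± 0.916 for Gclm and 10.2 ± 0.849 for Gpx2. Hmox1, Srxn1 and Gsta4 followed at 7.94 ± 0.932, 7.81 ± 0.142 and 7.24 ± 0.806, which did not differ beyond their spread, and Slc7a11 was last at 0.158 ± 0.0121. Nqo1 was thus the highest of the 10 per length and Slc7a11 the lowest. Slc7a11 was the lowest in all 6 groups, and Nqo1 the highest in 5, while in ATLD at day 0 Nfe2l2 (49.7 ± 6.67) and Nqo1 (49.4 ± 6.02) did not differ beyond their spread. In WT at day 14 Gsta4 stood next below Nqo1, at 76.8 ± 5.11 CPM per kilobase beside 106 ± 11.3 for Nqo1. In ATLD at day 28 Nqo1 reached 171 ± 9.28 CPM per kilobase, while Gsta4 was at 7.39 ± 1.03 and Gpx2 at 11.5 ± 0.654.

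Around these genes, 90 others of the pathway were described by 8 lists, of which 87 genes were tested. These lists too were chosen with earlier results of these data known, so their counts are a description. Over all of them 22 rose and 17 fell in WT at day 14, 6 rose and 12 fell in ATLD at day 14, and 41 were higher and 10 lower in ATLD than in WT at day 0. Of all genes tested, 15.2% rose and 15.1% fell in the first of these comparisons, 5.18% and 6.49% in the second, and 26.1% were higher and 29.5% lower in the third. The medians were -0.052, 0.013 and 0.40, beside 0.013, -0.030 and -0.039 over all genes. Without the WT libraries with the GC trend the counts were 28 and 16 in WT at day 14 and 55 and 11 at day 0, and within the second batch 43 and 7 at day 0. Of the 11 genes in the list of NRF2 control, which holds its degraders and partners, the KEAP1-binding protein gene Sqstm1 and the related factor gene Nfe2l1, 1 fell in WT at day 14 (Mafk, a small MAF partner, -0.61 ± 0.22, adjusted p = 0.0458), and without the libraries with the trend that call was lost (-0.164, adjusted p = 0.273) while Keap1 rose. In ATLD at day 14, edgeR called 0 of the 11 (2 at an unadjusted p under 0.05) and DESeq2 2. Keap1, the adaptor that targets NRF2 for degradation, was not called in any comparison, with values from -0.29 to 0.35, but this rested on the libraries with the GC trend. In WT it was at 37.0, 42.0 and 43.9 CPM at day 0 and at 35.6, 69.5 and 36.6 CPM at day 14, where the resequenced run of replicate 1 held 67.8 CPM. Without the libraries with the trend it rose in WT at day 14 (0.70 ± 0.10, adjusted p = 4.45e-05) and was higher in ATLD at day 0 (0.349, adjusted p = 0.0107; second batch alone 0.268, adjusted p = 0.194). Between the genotypes at day 0, 3 of the 11 were higher and 3 lower. Maff was higher by 0.95 ± 0.17 and Rbx1, the RING subunit of the ligase that KEAP1 serves, by 0.90 ± 0.13, while Mafg was lower by a log2 difference of -0.78 ± 0.18 and Gsk3b by one of -0.49 ± 0.19, which the second batch alone did not call (-0.496, adjusted p = 0.148).

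Glutathione genes split in both directions. In WT at day 14, 7 of 19 rose and 4 fell, and in ATLD 4 rose and 2 fell. Of all genes, 15.2% rose and 15.1% fell in WT at day 14, and 5.18% and 6.49% in ATLD. Between the genotypes at day 0, 26.1% of all genes were higher and 29.5% lower in ATLD. Gstm5, a mu class glutathione transferase, rose from 41.9 ± 0.81 to 254 ± 28.8 CPM in WT (2.60 ± 0.13, adjusted p = 5.36e-11) and from 59.2 ± 7.69 to 168 ± 23.0 CPM in ATLD (1.50 ± 0.12, adjusted p = 4.04e-07; SD, n = 3). Mgst2, a microsomal transferase, rose in WT (2.30 ± 0.21) and fell in ATLD (-0.74 ± 0.21), like Gsta4 in direction. Gsta3 and Ggt1, the gamma-glutamyl transferase that breaks glutathione down outside the cell, fell in WT (-3.50 ± 0.31 and -2.88 ± 0.26), and Gsta3 fell in ATLD too (-1.64 ± 0.25). Ggct, which acts further down that route, rose in both genotypes, from 8.81 ± 0.292 to 35.3 ± 0.789 CPM in WT (2.004 ± 0.11, adjusted p = 4.33e-10) and from 14.3 ± 0.786 to 30.3 ± 3.46 CPM in ATLD (1.08 ± 0.11, adjusted p = 4.63e-06). At day 0, 8 were higher and 4 lower in ATLD, with Gpx4, the lipid peroxide reductase, at 772 ± 278 against 166.5 ± 15.9 CPM (1.85 ± 0.29, adjusted p = 3.21e-05), Gsta3 at 1.85 ± 0.29, Gpx3 at -1.67 ± 0.19, and Gsr, the glutathione reductase, at 164 ± 8.60 against 403 ± 7.06 CPM (-1.29 ± 0.090, adjusted p = 2.5e-09).

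In the thioredoxin and peroxiredoxin list, 9 of 11 genes were higher in ATLD at day 0 and 0 lower, with a median of 0.83, where 26.1% of all genes were higher and 29.5% lower. Within the second batch the counts were 7 and 0. Prdx1, the cytosolic peroxiredoxin, was at 1412 ± 239.5 CPM in ATLD and 609 ± 32.2 CPM in WT (1.45 ± 0.18, adjusted p = 2.82e-06), and Txn1, thioredoxin itself, differed by 1.35 ± 0.14 (adjusted p = 6.09e-07). With time, 4 rose and 2 fell in WT at day 14, while in ATLD edgeR called 0 (1 at an unadjusted p under 0.05) and DESeq2 1. Of all genes, 15.2% rose and 15.1% fell in WT at day 14, and 5.18% and 6.49% in ATLD by edgeR. Prdx1 rose by 1.04 ± 0.16 (0.583 without the libraries with the GC trend) and Txn1 by 0.53 ± 0.13 in WT, while Txnrd2, the mitochondrial reductase, fell (-1.07 ± 0.17) as Txnrd1 did, and Prdx4 fell (-0.57 ± 0.11). Of 6 genes of NADPH supply, G6pdx and Idh1 rose in WT at day 14 (0.46 ± 0.10 and 0.38 ± 0.13), Me1 fell (-0.78 ± 0.10), of which Idh1 lost its call without the libraries with the GC trend (0.070, adjusted p = 0.653), 0 were called in ATLD at day 14 by edgeR or DESeq2 (0 at an unadjusted p under 0.05), and Taldo1 was the 1 gene higher in ATLD at day 0 (1.32 ± 0.28), where the second batch alone called 3 higher. Among superoxide dismutases and catalase, 0 of 4 were called in WT at day 14 by edgeR or DESeq2 (0 at an unadjusted p under 0.05), and 3 of 4 were higher in ATLD at day 0, led by Sod1 (1.05 ± 0.12) and Sod2 (0.85 ± 0.10).

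Detoxification and export genes were called in both directions in WT at day 14 and between the genotypes at day 0. Beside each list here, 15.2% of all genes rose and 15.1% fell in WT at day 14, and 5.18% and 6.49% in ATLD. Between the genotypes at day 0, 26.1% of all genes were higher and 29.5% lower in ATLD. In WT at day 14, 7 of 16 rose, among them the efflux pump Abcc4 (4.99 ± 0.57 to 21.1 ± 1.43 CPM, 2.08 ± 0.20, adjusted p = 3.01e-07) and the aldo-keto reductase Akr1b8 (1.26 ± 0.11), and 4 fell, among them Osgin1 (-2.93 ± 0.33) and the pump Abcc3 (-1.55 ± 0.17). In ATLD at day 14, 0 rose and 4 fell, with Abcc4 at -1.01 ± 0.22 and Aldh3a1, an aldehyde dehydrogenase, at -1.04 ± 0.15. At day 0, 7 were higher in ATLD (Ptgr1 by 1.15 ± 0.13 and Akr1c13 by 0.95 ± 0.20) and 3 lower (Abcc3 -2.78 ± 0.18 and Aldh3a1 -0.88 ± 0.17). Of the 8 haem and iron genes, Tfrc, the transferrin receptor, rose in WT at day 14 (1.77 ± 0.15) and fell in ATLD (-0.68 ± 0.15), and Slc40a1, the iron exporter ferroportin, did the reverse (-0.76 ± 0.14 and 0.76 ± 0.14; in WT -1.164 without the libraries with the GC trend). At day 0, 4 of them were higher in ATLD, with the ferritin heavy chain Fth1 at 1780 ± 416 against 699 ± 15.6 CPM (1.21 ± 0.17) and Tfrc at 0.98 ± 0.16. ATF4 is another factor known to drive Slc7a11, and Atf4 with other targets of it formed the last list. In WT at day 14, 1 of 12 rose (Phgdh, 1.29 ± 0.26) and 3 fell, among them Atf3 (-1.54 ± 0.15) and Slc7a5 (-0.92 ± 0.16), whereas without the libraries with the GC trend 4 rose and 3 fell, with Slc7a5 at -0.593. In ATLD 0 rose and 5 fell, with Phgdh at -1.41 ± 0.26 and Psat1 at -1.30 ± 0.096, and at day 0, 6 were higher in ATLD and 0 lower, with Psat1 at 1.51 ± 0.10 and Phgdh at 1.39 ± 0.27.

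**Figure D4:**
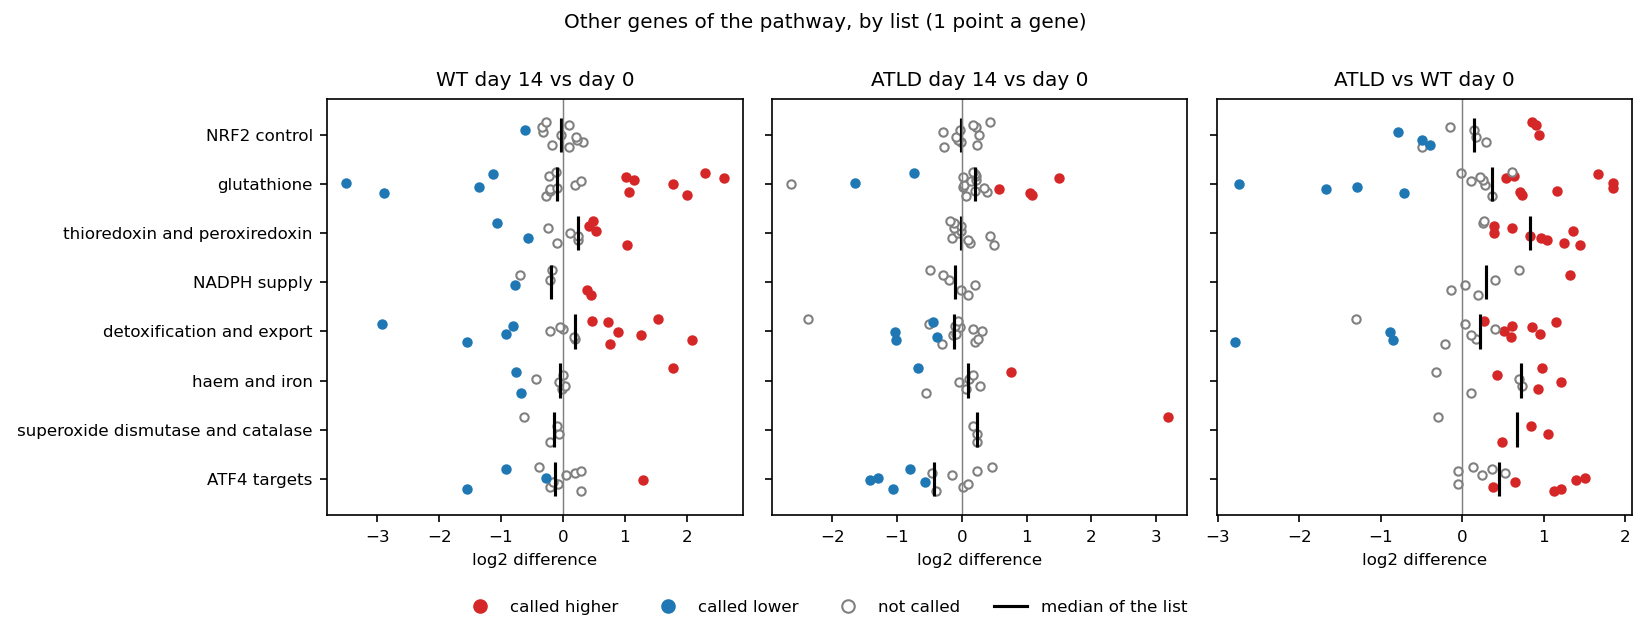
Log2 difference (horizontal axes) of each gene of the 8 pathway lists in WT at day 14 against day 0, in ATLD at day 14 against day 0 and in ATLD against WT at day 0. A point is a gene, red if called higher, blue if called lower and open if not called, and the black line is the list's median. The thioredoxin and peroxiredoxin list lies right of 0 in the third panel, with a median of 0.83.

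The runs of the same WT culture give a measure of the technical part of the spread. For the 10 genes the log2 ratio of the resequenced over the original run was -0.27 to 0.27 at day 0, -0.45 to 0.69 at day 14 and -0.081 to 0.15 at day 28. Over all genes its SD was 0.405, 0.646 and 0.323. At day 14, where the original run is one of the libraries with the GC trend, Hmox1 was at 13.2 CPM in the original and 21.4 CPM in the resequenced run, and Gpx2 at 93.5 and 139 CPM. Gclm was at 138 and 100.4 CPM there. For Hmox1 and Gpx2 the gap between runs was smaller than the range of the 3 replicates of the day, and for Gclm it was larger. Gsta4 was at 104 and 92.8 CPM and Slc7a11 at 12.7 and 10.1 CPM, which are small beside their rise from day 0, and Txnrd1 differed by at most 0.037 between the runs of any culture.

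**Figure D5:**
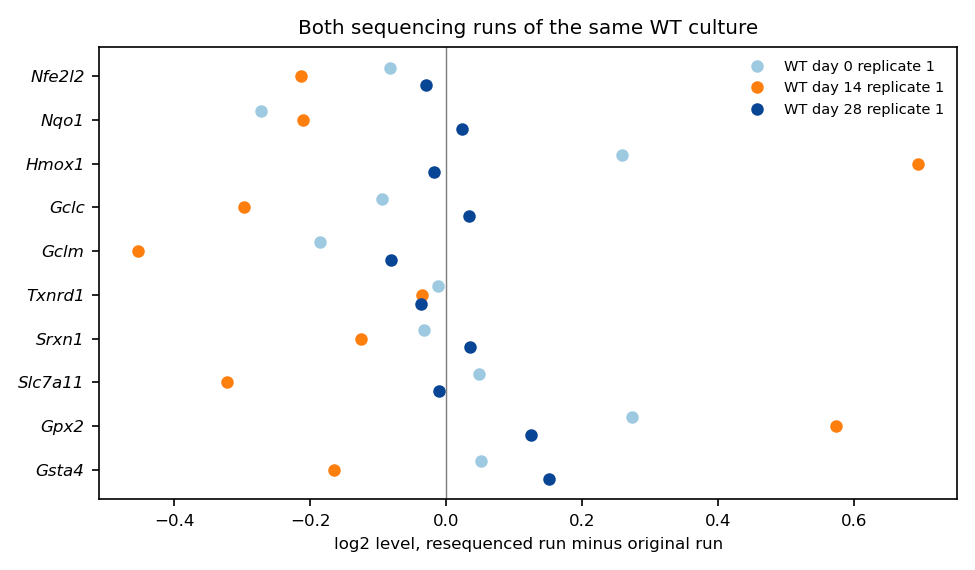
Log2 ratio of the level in the resequenced run over that in the original run (horizontal axis) for each gene and each of the 3 WT cultures that were sequenced in both batches, 1 point a culture. Points of day 14 spread furthest, from -0.45 for Gclm to 0.69 for Hmox1, and Txnrd1 stays within 0.037 of 0.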

How the data were processed

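Polyadenylated RNA of 21 libraries was sequenced after stranded library preparation, per the labels' protocols. The authors deposited 1 table of raw counts per gene on mm10 with a column of gene lengths. The submitters' processing notes name featureCounts and DESeq2. Aligner, annotation release and strand setting: not given in the sources used here. All 55536 gene IDs matched GENCODE vM21, which gave symbols, positions and GC content, and 36178 had any count.

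Counts were tested with edgeR 4.0.16 in R 4.3.3 (quasi-likelihood F test, TMM, filterByExpr with a minimum count of 10 and total of 15, prior count 0.125) over all genes with Benjamini-Hochberg adjustment, a call being an adjusted p under 0.05. The 18 original libraries entered the tests of time and of genotype by time (18684 genes, 12 residual degrees of freedom). The tests of genotype used all 21 libraries and a term for sequencing batch, over 18844 genes with 14 residual degrees of freedom. Both runs of a WT culture entered this fit as separate libraries, with no term for the culture. The SE and p-values of genotype and of the batch term therefore treat runs of 1 culture as independent. Values after ± are SE of log2 differences or SD of 3 libraries. Levels are TMM-scaled CPM. Alternatives were median-of-ratios size factors, no low-count filter, DESeq2 1.42.0, a GC offset, a replicate block, other sets of libraries and leaving out each replicate. The scripts were tested on simulated data.

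The 10 genes and the pathway and marker lists were chosen with earlier results of these data known. All 10 genes were named whether called or not, and from each pathway list up to 2 called genes per direction with the largest difference and a mean log2 CPM of at least 1, in 3 comparisons. Gsta1, Gstm3 and Abcc2 had too few counts to be tested, and Ddit3, which has 2 IDs, was left out. Counts of pathway genes under DESeq2, and counts and named genes without the WT libraries with a GC trend and within the second batch, were added after the data were seen.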

Additional observations from a re-analysis of the deposited data

Results flagged for a closer look

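Values here are the log2 change from day 0 in ATLD minus that in WT, and each listed value had an adjusted p under 0.05 in the edgeR test of that difference. Gsta4 differed by -4.88 at day 14 and -4.36 at day 28. Gpx2 differed by -2.26 and -3.08, and Slc7a11 by -2.72 and -1.84, on the same days. Nqo1 differed by 0.68 and 1.33, Txnrd1 by 0.43 and 0.59, and Gclc by 0.44 and 0.49. Nfe2l2 differed at day 14, by -0.53. The calls of Nfe2l2 and Txnrd1 at day 14 and of Gclc at both days were lost in some alternative fits. The time effects of both genotypes share no library, while the values of both days share the libraries of day 0.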

How the results depend on the processing

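Of 110 results on the 10 genes in 11 comparisons, 64 were called. Of these, 44 were called in all of their alternatives and 20 lost the call in at least 1. A further 13 gained one, and 0 called results reversed. The number of the 10 genes called from day 14 to day 28 in WT was 2, and it was 0 with the compared groups alone, with the replicate block, with the resequenced runs in place of the originals and without the libraries with the GC trend (edgeR, with 2, 2, 2 and 3 at an unadjusted p under 0.05, where DESeq2 called 2). The number with a genotype difference in the change to day 14 was 7, and it was 4 without the low-count filter and 4 with the replicate block. Leaving out each replicate gave 6 to 8 in WT at day 14, 5 to 7 at day 28 and 0 to 4 from day 14 to day 28. It was 0 without WT day 14 replicate 1 or 3 or WT day 28 replicate 1 or 3 (2 each at an unadjusted p under 0.05), and 4 without WT day 14 replicate 2. In ATLD it gave 2 to 3, 4 to 5 and 2 to 3, between the genotypes 5 to 7 at day 0, 6 to 7 at day 14 and 8 to 9 at day 28, and for genotype by time 6 to 8 and 5 to 6.

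Over all genes, the calls from day 14 to day 28 in WT were 169 (1851 at an unadjusted p under 0.05), 312 with DESeq2, 302 with the GC offset, 55 with the replicate block, 94 with the resequenced runs and 0 with the compared groups alone. Without WT day 14 replicates 1, 2 and 3 they were 72, 3817 and 80, and without WT day 28 replicates 1 and 3 they were 62 and 67. In ATLD the calls at day 14 went from 2180 to 3610 with the GC offset, and from day 14 to day 28 from 3232 to 4960 with it and to 1975 with the block. Between the genotypes at day 0 they went from 10483 to 6927 without WT day 0 replicate 1. Whether replicate numbers pair the libraries was not settled. For the same number the deviations of WT day 0 and day 14 correlated at -0.159 to 0.317 over genes, and those of day 14 and day 28 at -0.701 to -0.379. The WT values cannot decide it, since the GC trend falls on replicates 1 and 3 at day 14 and on replicate 2 at day 28. In ATLD the same numbers gave -0.073 to 0.296 for day 0 and day 14, where different numbers gave -0.185 to 0.257. For day 14 and day 28 the same numbers gave -0.382 to 0.018 there. Where a day is left with 1 library, it is assumed to vary like the other groups. With 3 libraries a group and SE of 0.080 to 0.20 for the 10 genes over time, differences of that size would not be detected. Larger ones could be missed as well, since Gpx2 in ATLD at day 14 (-0.52 ± 0.18) was not called.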
